A study of Mus musculus with 8 samples.

Results

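Forkhead transcription factors are read out here through the chromatin of the genes that encode them. The set held 39 forkhead genes of 21938 protein-coding genes of the mouse GENCODE annotation. Each was given a locus that ran from 20 kb before to 20 kb after its gene body on genome build mm10, without use of any measured value. Because Foxf1, Foxc2 and Foxl1 lie beside each other, as do Foxd2 and Foxe3, the loci formed 36 distinct windows covering 3.71 Mb. At 21 of the genes another protein-coding gene also started within the window.

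The cells were mouse embryonic fibroblasts at day 5 of reprogramming towards pluripotency. Per the methods of the study they came from embryos of male OG2 mice, with an Oct4-GFP reporter, crossed to females of another strain. They were infected with retroviruses. In the NanogWT arm, labelled Nanog+Oct4, the cells received Oct4 and FLAG-tagged wild-type Nanog. In the NanogBiD arm, labelled NanogN70+Oct4, they received Oct4 and FLAG-tagged Nanog fused to a stretch of SS18 through which BRG1 is bound, BRG1 being the motor subunit of the BAF remodeller. That NanogN70 is NanogBiD comes from the text of the study and not from the labels. Both arms therefore carried Oct4, and no arm without Nanog is used here. CUT&Tag, in which an antibody guides a transposase to its target, was made with antibodies to the FLAG tag of NANOG, to BRG1, to H3K27ac, a mark of active promoters and enhancers, and to H3K4me1, a mark of enhancers and of the edges of promoters. The antibody label of the last reads H3K4me and its title H3K4me1. There was 1 library per group, 8 in all, each merged by the authors from replicates whose number is not given for these libraries, and it held bulk cells in which a subpopulation and a uniform change cannot be told apart. No test between arms was possible, and every interval given is a 95% interval that covers counting error only.

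Forkhead proteins bind DNA through the winged-helix forkhead domain, and several of them can engage nucleosomal DNA and open it for other factors. FOXA factors act in endoderm, FOXD3 in the pluripotent epiblast and neural crest, FOXH1 as a partner of SMAD proteins downstream of Nodal, and FOXC, FOXD1, FOXF and FOXL1 in mesenchyme. FOXO factors are held in the cytoplasm by AKT and act in stress resistance and cell cycle arrest, FOXM1 drives mitotic genes, and FOXP factors repress transcription in lung, heart, brain and lymphoid tissues. Many forkhead genes that act in a single tissue are silent in fibroblasts.

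Peak lists held between 30859 and 74782 peaks, and the number of sequenced tags was unknown, so a longer list may come from a deeper library. The summit height used below is the number of tags piled up at the top of a peak, unscaled to depth. At fibroblast markers such as Col1a1, Thy1 and Twist1, 7 of 8 promoters had an H3K27ac peak in both arms. Of 7 pluripotency markers, 0 had one in NanogWT and 1, Sall4, in NanogBiD, while Nanog and Pou5f1 had none. Markers of epithelium, endothelium, blood and neurons had H3K27ac peaks at 0 of 11 promoters in NanogWT and at 5 of 11 in NanogBiD, which were Krt8, Cdh5, Kdr, Ptprc and Tubb3. The part of other cell types in the results below was not tested.

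The DNA under the peaks that differed most is shown first. The lines below give bases around the FLAG summit on the + strand of mm10, from the reference genome of that build, and capitals mark a match to the OCT octamer ATGCAAAT, AP-1 TGANTCA or TEAD GGAATG on either strand. The first 4 lines come from places where NanogBiD alone had peaks of both FLAG and BRG1, ranked by the lower of their FLAG and BRG1 heights. They lie in introns of Foxp1, Foxp4, Foxp1 and Foxk1.
Foxp1 intron, chr6:99467347-99467467: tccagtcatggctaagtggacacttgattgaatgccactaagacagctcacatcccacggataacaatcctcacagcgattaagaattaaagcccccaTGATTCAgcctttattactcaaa
Foxp4 intron, chr17:47876901-47877021: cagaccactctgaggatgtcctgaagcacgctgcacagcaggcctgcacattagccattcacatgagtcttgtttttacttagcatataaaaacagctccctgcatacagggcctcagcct
Foxp1 intron, chr6:98933465-98933585: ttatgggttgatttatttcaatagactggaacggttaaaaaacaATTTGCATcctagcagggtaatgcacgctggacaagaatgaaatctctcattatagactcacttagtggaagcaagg
Foxk1 intron, chr5:142425883-142426003: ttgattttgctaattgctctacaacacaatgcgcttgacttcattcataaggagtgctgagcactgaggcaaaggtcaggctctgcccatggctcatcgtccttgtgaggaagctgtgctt

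For contrast, the next pair had FLAG and BRG1 peaks in NanogWT alone, one downstream of Foxo6 and one at the Foxn3 promoter. The Foxn3 one lies beside another promoter region with both targets in both arms.
Foxo6 downstream, chr4:120263790-120263910: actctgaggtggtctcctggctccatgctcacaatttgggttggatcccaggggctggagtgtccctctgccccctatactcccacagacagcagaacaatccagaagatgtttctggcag
Foxn3 promoter, chr12:99563718-99563838: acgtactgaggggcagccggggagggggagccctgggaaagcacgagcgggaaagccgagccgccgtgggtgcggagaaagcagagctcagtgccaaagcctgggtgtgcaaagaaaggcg

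The last pair had FLAG in both arms and BRG1 in NanogBiD alone, the first being the region with the highest ratio of FLAG heights and the second, chosen after its values were seen, the region with the tallest BRG1 summit of that class.
Foxp1 intron, chr6:99066239-99066359: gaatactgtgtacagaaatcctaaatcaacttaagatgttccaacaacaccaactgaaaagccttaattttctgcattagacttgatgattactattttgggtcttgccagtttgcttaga
Foxp2 intron, chr6:15435480-15435600: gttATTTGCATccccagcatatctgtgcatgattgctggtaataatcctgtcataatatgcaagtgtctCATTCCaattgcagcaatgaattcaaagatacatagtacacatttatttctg

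Across the forkhead loci, BRG1 peaks were more numerous in NanogBiD, and most of the excess lay away from promoters. The BRG1 lists held 68 peaks there in NanogWT and 123 in NanogBiD, and the ratio of NanogBiD to NanogWT was 1.81 (1.33 to 2.47). Over the loci of all protein-coding genes the BRG1 ratio was 1.56 (1.53 to 1.58), so forkhead loci as a whole did not stand apart beyond counting error. FLAG peaks numbered 127 and 161, a ratio of 1.27 (0.998 to 1.61) against 1.24 over all loci. H3K27ac peaks numbered 95 and 112, a ratio of 1.18 (0.889 to 1.57) against 1.16. H3K4me1 went the other way, with 189 and 155 peaks, a ratio of 0.820 (0.659 to 1.02) against 0.798. In NanogWT forkhead loci held more peaks per Mb than the loci of all protein-coding genes for every target, at 50.9 against 37.5 for H3K4me1, 25.6 against 19.8 for H3K27ac, 34.2 against 29.3 for FLAG and 18.3 against 17.4 for BRG1. The same order held in NanogBiD, at 41.8 against 29.9, 30.2 against 22.9, 43.4 against 36.3 and 33.1 against 27.2.

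Peaks were then split by position, a promoter peak being one within 2 kb of a start site of any protein-coding gene and a distal peak one farther away. Promoter BRG1 peaks at forkhead loci numbered 35 in NanogWT and 43 in NanogBiD, with a ratio of 1.23 (0.768 to 1.98). Distal BRG1 peaks numbered 33 and 80, a ratio of 2.42 (1.60 to 3.76). The distal excess was also present over all loci, at 1.99 (1.94 to 2.03) against 1.12 (1.09 to 1.14) at promoters. FLAG showed a smaller contrast, with 43 and 42 promoter peaks and 84 and 119 distal peaks, a distal ratio of 1.42 (1.06 to 1.90) beside 1.32 over all loci. Distal H3K4me1 peaks numbered 125 and 100, a ratio of 0.800 (0.609 to 1.05) beside 0.743 over all loci.

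When each list was limited to its 20000 highest-scoring peaks, so that lists of equal length were compared, the BRG1 excess at forkhead loci was gone, with 43 peaks in NanogWT and 42 in NanogBiD. The FLAG numbers were then 43 and 39. Distal BRG1 peaks remained more numerous in NanogBiD at equal list length, at 16 and 25, a ratio of 1.56 whose interval of 0.802 to 3.13 spans equality, whereas distal FLAG peaks numbered 29 and 26. With scores of at least 100 the distal BRG1 peaks numbered 10 and 37, a ratio of 3.70 (1.80 to 8.34), and with heights of at least 15 tags 6 and 27, a ratio of 4.50 (1.82 to 13.3).

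**Figure D1:**
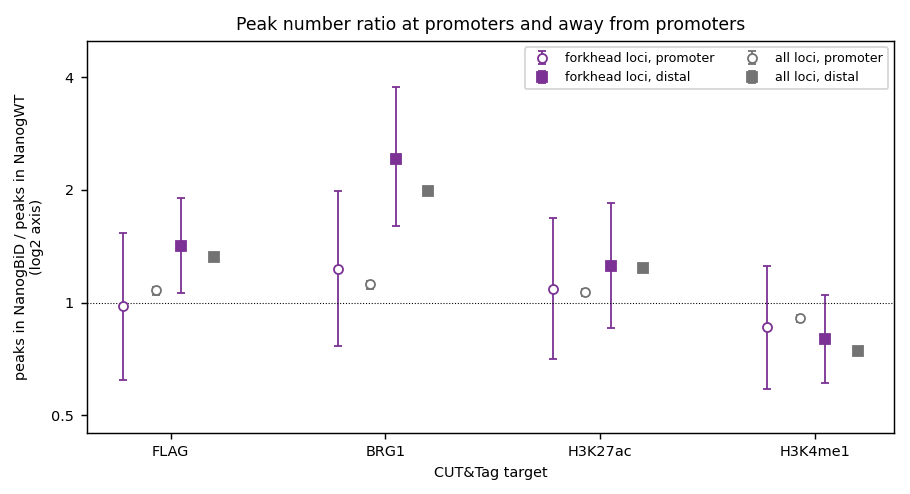
Ratio of peak numbers, NanogBiD over NanogWT (log2 axis), for each CUT&Tag target at forkhead loci (purple) and at the loci of all protein-coding genes (grey), with promoter peaks as open circles, distal peaks as filled squares and 95% intervals for counting error as bars. Distal BRG1 peaks have the highest ratio, 2.42 at forkhead loci and 1.99 over all loci, and H3K4me1 lies below 1.

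Counted gene by gene, 18 forkhead loci had more FLAG peaks in NanogBiD and 3 had fewer, of 33 with a FLAG peak in either arm, that is 54.5% and 9.09%. Over all protein-coding loci 50.2% had more and 17.6% fewer. For BRG1, 18 loci had more and 5 fewer of 31, or 58.1% and 16.1%, beside a background of 53.2% and 12.7%. H3K27ac peaks were more numerous at 13 loci and less numerous at 7 of 32, where 37.4% and 17.4% of all loci were. H3K4me1 peaks were more numerous at 2 loci and less numerous at 20 of 38, or 5.26% and 52.6%, beside 19.7% and 51.6%. These shares were near the background for FLAG, BRG1 and H3K27ac. At equal list length more loci had fewer than more BRG1 peaks in NanogBiD, 13 against 5 of 26, and for FLAG 8 against 3 of 21. Over all loci at equal list length 40.4% had fewer and 17.2% more BRG1 peaks, and 29.8% and 24.3% FLAG peaks. H3K4me1 also turned, with 11 forkhead loci with more and 9 with fewer peaks of 33, beside 33.5% and 25.3% of all loci. With heights of at least 15 tags, 9 loci had more and 8 fewer FLAG peaks, and 10 had more and 8 fewer BRG1 peaks. Shares over all loci were not computed at this cut.

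**Figure D2:**
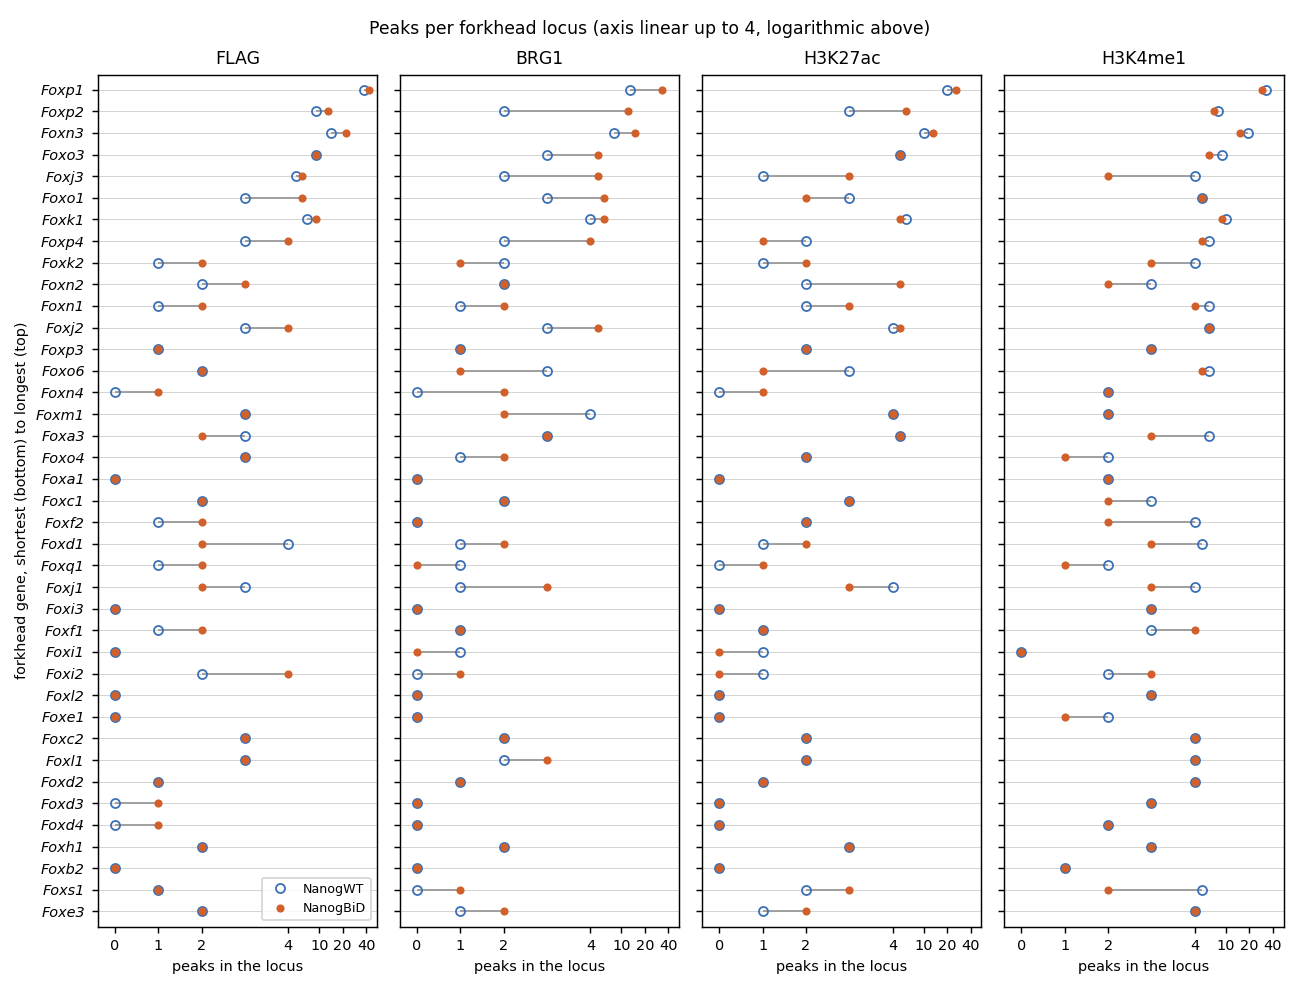
Number of peaks in each of the 39 forkhead loci (horizontal axis, linear up to 4 and logarithmic above) for the 4 targets, genes ordered from the shortest body at the bottom to the longest at the top. Open blue circles are NanogWT and filled orange circles NanogBiD, and the largest differences in BRG1 peak number are at Foxp1 (13 and 33) and Foxp2 (2 and 12).

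The FOXP genes carried the widest difference in BRG1 peaks of any role group. Together the 4 FOXP loci held 18 BRG1 peaks in NanogWT and 50 in NanogBiD, and 50 and 62 FLAG peaks. Foxp1 (chr6:98925338-99522721, - strand, body of 597 kb), which encodes a repressor that is also spliced differently in pluripotent cells, held 37 FLAG peaks in NanogWT and 44 in NanogBiD. Its BRG1 peaks numbered 13 and 33, a ratio of 2.54 (1.30 to 5.26). H3K27ac peaks at Foxp1 numbered 20 and 26, and H3K4me1 peaks 33 and 29.

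Foxp2 (chr6:14901349-15441977, + strand, body of 541 kb), known for its role in brain circuits for vocalisation, held 9 and 13 FLAG peaks. The BRG1 lists had 2 peaks there in NanogWT and 12 in NanogBiD, with a ratio of 6.0 with a wide interval of 1.34 to 55.2. There were 3 and 6 H3K27ac peaks and 8 and 7 H3K4me1 peaks. Both BRG1 peaks of NanogWT lay at start sites or beside them, one at the 5' start of the gene and one at an internal start, and the other 10 regions with BRG1 at Foxp2 had it in NanogBiD alone.

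Foxp4 (chr17:47867133-47924645, - strand) held 3 and 4 FLAG peaks and 2 and 4 BRG1 peaks. It had 2 and 1 H3K27ac peaks and 6 and 5 H3K4me1 peaks. Foxp3, the master regulator of regulatory T cells, had the same number of peaks in both arms for every target, 1 each of FLAG and BRG1, 2 of H3K27ac and 3 of H3K4me1. The Foxp3 window also holds the starts of Cacna1f, Ccdc22 and Ppp1r3f.

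Foxn3 (chr12:99190078-99563582, - strand, body of 374 kb), a repressor linked to the DNA damage checkpoint, held 14 and 22 FLAG peaks and 8 and 15 BRG1 peaks. Its H3K27ac peaks numbered 10 and 13, its H3K4me1 peaks 19 and 15. Foxp1, Foxp2 and Foxn3 are the longest genes of the family, and together they held 33.8% of the BRG1 peaks at forkhead loci in NanogWT and 48.8% in NanogBiD. Without these 3 genes BRG1 peaks numbered 45 and 63, a ratio of 1.40 (0.940 to 2.10), and distal BRG1 peaks 18 and 32, a ratio of 1.78 (0.968 to 3.36). Of all protein-coding genes, 426 had windows of at least 400 kb, and over these the BRG1 ratio was 2.25 (2.15 to 2.36). The ratio of the 3 forkhead genes, 2.61 (1.59 to 4.42), included that value in its interval, so other long genes had a like excess.

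**Figure D3:**
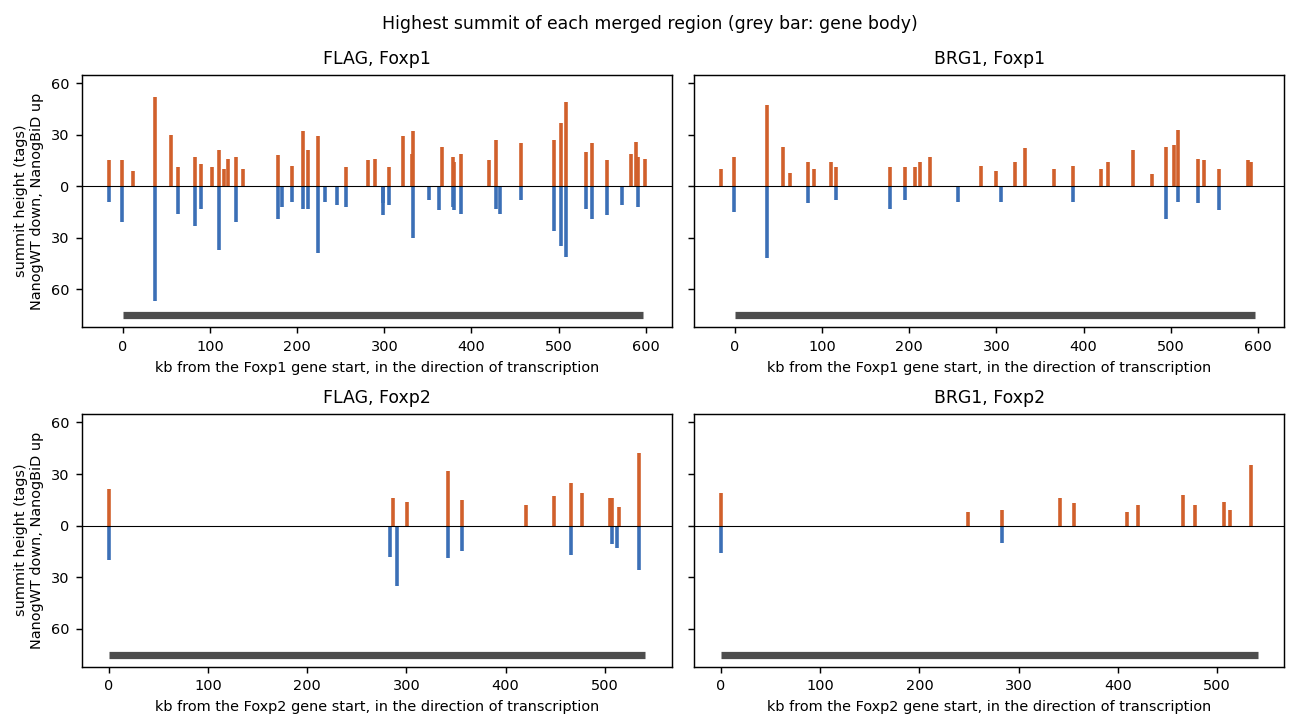
Highest FLAG and BRG1 summit (tags) of each merged region along Foxp1 and Foxp2, plotted by distance in kb from the gene start in the direction of transcription, with NanogBiD drawn upwards in orange, NanogWT downwards in blue and the gene body as a grey bar. FLAG summits occur along both genes in both arms, and a part of them lies in one arm alone. Many BRG1 summits, such as the one of 35 tags near the end of Foxp2, have no counterpart in NanogWT.

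Overlapping FLAG and BRG1 peaks of both arms were merged into regions to ask whether NANOG and BRG1 differed at the same places. Of 98 forkhead regions with FLAG in both arms, 51 had BRG1 in both, 37 had BRG1 in NanogBiD alone and 2 in NanogWT alone. The 37 made up 37.8% (28.8 to 47.6), beside 27.8% over all loci. Of 60 regions with FLAG in NanogBiD alone, 22 had BRG1 in NanogBiD alone, 36.7% (25.6 to 49.3) beside 34.7%, and 33 had no BRG1 peak. That share was 55.6% at equal list length (5 of 9 regions) and 21.4% with heights of at least 15 tags (9 of 42). Of 27 regions with FLAG in NanogWT alone, 6 had BRG1 in NanogWT alone, 22.2% (10.6 to 40.8) beside 11.9%.

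Foxp1 held 28 regions with FLAG in both arms, and BRG1 was present in both at 10 of them and in NanogBiD alone at 13. Foxp2 held 6, with BRG1 in both at 1 and in NanogBiD alone at 5. At Foxn3 the 12 such regions had BRG1 in both at 6 and in NanogBiD alone at 5. Of all 37 regions of that class, 23 lay in those 3 genes and 27 in introns, and their FLAG heights in NanogBiD ran from 10 to 47 with a median of 21. Their BRG1 heights ran from 8 to 35 with a median of 14.0. The 22 regions with both targets in NanogBiD alone were lower, with a median FLAG height of 16.0 and a median BRG1 height of 12.0, and 17 of them were intronic.

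The region with the tallest BRG1 summit of the 37 lay in an intron of Foxp2 (chr6:15434949-15436557). FLAG height was 26 in NanogWT and 42 in NanogBiD, and BRG1 had no peak in NanogWT and a summit of 35 in NanogBiD. H3K27ac and H3K4me1 peaks, of 15 and 10 tags, were likewise called in NanogBiD alone. An OCT octamer started 57 bases before its FLAG summit, in the Foxp2 line printed above, and a TEAD match 9 bases after it. At this intronic site the FLAG summit was thus taller in NanogBiD, in tags unscaled to depth, and the other targets were called in NanogBiD alone.

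Next, with equal BRG1 summits of 24 tags, came a Foxp1 intron (chr6:99018461-99021071) with FLAG heights of 35 and 37 and a region 1.8 kb upstream of Foxj3, where FLAG height was 18 and 47. No peak of either histone mark was called at the Foxj3 region, and the summit coincided with a start site of Frg2f1. The Foxp1 region with the highest FLAG ratio (chr6:99065247-99066869) had FLAG heights of 8 and 25, BRG1 in NanogBiD alone at 21 and H3K4me1 in NanogBiD alone at 16. Another Foxp1 intron region (chr6:99315467-99316987) had FLAG heights of 13 and 32 and BRG1 in NanogBiD alone at 11.

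Lower FLAG summits in NanogBiD were also found. A region 14.1 kb downstream of the start of Foxc1, a regulator of mesenchyme and the eye, had FLAG heights of 19 and 10, BRG1 heights of 15 and 14 and an H3K4me1 peak in NanogWT alone. A region 18.6 kb upstream of Foxp4 had FLAG heights of 18 and 10, with BRG1 in NanogBiD alone at 10. A Foxp1 intron (chr6:99411257-99412972) had FLAG heights of 37 and 21, and yet BRG1 was called in NanogBiD alone at 14, so FLAG and BRG1 did not differ in the same direction at these last 2 regions. Foxp2 held 3 regions with FLAG in NanogWT alone, beside 7 in NanogBiD alone. One of the 3 (chr6:15191012-15195503) had a FLAG summit of 35 tags and no BRG1 peak in either arm.

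Among regions with both targets in NanogBiD alone, the highest ranked lay in a Foxp1 intron (chr6:99466063-99468620), where FLAG reached 30 tags and BRG1 23, with an H3K27ac peak of 11 in NanogBiD alone. An AP-1 match started 38 bases after its summit. A second Foxp1 region (chr6:98932849-98934016), 2.0 kb from an internal start site, had FLAG 26, BRG1 15 and H3K27ac 19, each in NanogBiD alone, and its octamer started 16 bases before the summit. Foxp1 also held a region at chr6:99200630-99203987 with FLAG 29, BRG1 14 and H3K4me1 13 in NanogBiD alone.

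The Foxp4 region (chr17:47876445-47877983) had FLAG 26 and BRG1 17 in NanogBiD, but its H3K27ac peak of 21 was called in NanogWT alone. In Foxk1 (chr5:142424846-142426841) FLAG 24 and BRG1 15 in NanogBiD stood where H3K27ac was present in both arms, at 14 and 21. A Foxo3 intron (chr10:42207659-42208872) had FLAG 18 and BRG1 14 in NanogBiD and neither histone mark. Over the 22 regions, H3K27ac was called in NanogBiD alone at 6, in NanogWT alone at 1, in both at 3 and in neither at 12. The first of these shares was 27.3% and the second 4.55%, beside 24.4% and 1.27% of such regions over all loci. Of the 37 regions with FLAG in both arms and BRG1 in NanogBiD alone, 7 had H3K27ac in NanogBiD alone and 4 in NanogWT alone. A further 11 had it in both arms and 15 in neither. The shares in one arm alone were 18.9% and 10.8%, beside 31.6% and 4.10% over all loci.

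Regions with both targets in NanogWT alone were fewer, 6 in all. The Foxo6 downstream region (chr4:120262508-120264417) had FLAG 13, BRG1 14 and H3K27ac 11 in NanogWT alone. At a Foxn3 promoter region (chr12:99563257-99564138), 0.2 kb upstream of a start site, FLAG 16 and BRG1 12 were called in NanogWT alone. H3K27ac was present there in both arms at 17 and 23. A neighbouring region 1.1 kb from a start site (chr12:99561020-99562823) had FLAG at 20 and 15 and BRG1 at 16 and 14. The Foxn3 promoter as a whole thus had FLAG and BRG1 peaks in both arms. A Foxo3 intron (chr10:42250531-42251819) had FLAG 19 and BRG1 11 in NanogWT and both histone marks in both arms.

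Octamer matches were searched within 50 bases of FLAG summits because OCT4 was supplied in both arms. At forkhead loci 3 of 61 summits in NanogBiD alone had a match, 4.92% (1.69 to 13.5), and 3 of 98 shared summits, 3.06% (1.05 to 8.62). Over the whole genome the shares were 2.89% and 2.24%, and 1 kb away from those summits 0.647% and 0.629%. Of 28 summits in NanogWT alone 0 had a match, which allows a share of up to 10.7% when 3 counts are taken as the limit of a count of 0, beside 1.30% over the genome. These 6 sites are too few to set the classes apart. The other letters searched, forkhead TGTTTAC, SOX ACAAAG, AP-1 and TEAD, were matched at 1, 3, 4 and 2 of the 61 forkhead summits of NanogBiD alone. These are shares of 1.64% (0.290 to 8.72), 4.92% (1.69 to 13.5), 6.56% (2.58 to 15.7) and 3.28% (0.904 to 11.2). Over the genome they were 1.57%, 10.1%, 10.6% and 6.38%, each inside the interval.

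The 6 octamer sites are printed with 20 bases on either side, the octamer or its reverse complement in capitals, because they place matches to the OCT4 consensus at named genes, 5 of them in introns and the Foxo6 one beyond the gene.
Foxp1, NanogBiD alone, chr6:98933489-98933536: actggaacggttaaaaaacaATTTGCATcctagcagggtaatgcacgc
Foxo1, NanogBiD alone, chr3:52284402-52284449: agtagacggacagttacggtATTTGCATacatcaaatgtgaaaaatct
Foxo6, NanogBiD alone, chr4:120252616-120252663: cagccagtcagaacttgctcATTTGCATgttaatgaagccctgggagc
Foxp1, both arms, chr6:99432513-99432560: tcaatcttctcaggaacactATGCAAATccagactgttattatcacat
Foxn3, both arms, chr12:99300099-99300146: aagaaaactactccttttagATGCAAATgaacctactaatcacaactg
Foxn1, both arms, chr11:78370510-78370557: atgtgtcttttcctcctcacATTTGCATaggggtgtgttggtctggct

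The Foxo1 site had FLAG 9 and BRG1 11 in NanogBiD alone and neither histone mark. Near Foxo6, FLAG was called in NanogBiD alone at 9, but BRG1 at 8 and H3K27ac at 8 were called in NanogWT alone. At the shared Foxp1 site FLAG height was 13 in both arms and BRG1 was called in NanogBiD alone at 10. The Foxn3 site had the tallest summits, with FLAG 41 and 47 and BRG1 16 and 31. The Foxn1 site had FLAG 9 in both arms and BRG1 12 and 11. BRG1 was therefore called in NanogBiD alone at 3 of the 6 sites, in both arms at 2 and in NanogWT alone at 1.

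Summit heights differed little in the median where both arms had a peak. Single FLAG regions went both ways, 52 taller in NanogBiD and 38 in NanogWT. The median log2 ratio of heights, NanogBiD over NanogWT, was 0.08 (0.00 to 0.21) at 98 FLAG regions, 0.17 (-0.13 to 0.29) at 54 BRG1 regions, 0.10 (0.00 to 0.22) at 77 H3K27ac regions and -0.11 (-0.18 to 0.00) at 115 H3K4me1 regions. Over all loci these medians were 0.15, 0.10, 0.07 and -0.18.

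FOXO genes are the members controlled by insulin and AKT signalling. The 4 FOXO loci held 17 and 20 FLAG peaks, 10 and 14 BRG1 peaks, 13 and 10 H3K27ac peaks, and 22 and 17 H3K4me1 peaks. Foxo1 (chr3:52268336-52353221, + strand) held 3 and 6 FLAG peaks and 3 and 6 BRG1 peaks, against 3 and 2 H3K27ac peaks and 5 in each arm for H3K4me1. All 3 FLAG regions of NanogWT at Foxo1 were shared and had BRG1 in both arms, and of the 3 in NanogBiD alone 2 had BRG1 in NanogBiD alone. Foxo3 had 9 FLAG peaks in each arm, with 5 regions shared, 4 in NanogWT alone and 3 in NanogBiD alone, and 3 and 5 BRG1 peaks. Foxo6 had 2 FLAG peaks in each arm, with 1 region shared, but 3 and 1 BRG1 peaks and 3 and 1 H3K27ac peaks, the opposite order to Foxo1 for BRG1.

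The genes that act with forkhead factors were taken from a list of 25, namely SMAD partners, the insulin and AKT arm upstream of FOXO, and FOXO targets. FLAG peaks were more numerous in NanogBiD at 12 and less numerous at 7 of them, BRG1 peaks at 17 and 1, H3K27ac peaks at 12 and 3 and H3K4me1 peaks at 5 and 14. As shares of the list's loci with a peak, BRG1 was more numerous at 68.0%, beside 53.2% over all genes, FLAG at 48.0%, beside 50.2%, and H3K4me1 less numerous at 56.0%, beside 51.6%. H3K27ac was more numerous at 12 of 24, beside 37.4%, and FLAG less numerous at 7 of 25, beside 17.6%. Bcl6, a repressor that FOXO factors induce, had 2 and 4 FLAG peaks and 0 and 3 BRG1 peaks. At Sesn1, a stress-induced regulator of TORC1, FLAG peaks numbered 6 and 9 and BRG1 peaks 3 and 7. Ccng2 was the single gene of the list with fewer BRG1 peaks, at 2 and 1. The interval of the BRG1 ratio over the list, 1.10 to 2.05, held the 1.56 over all loci.

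Broadly expressed members came next. Over Foxk1, Foxk2, Foxj2, Foxj3, Foxn2, Foxn3 and Foxm1, FLAG peaks numbered 35 and 49 and were more numerous in NanogBiD at 6 of 7 loci, beside 50.2% of all loci with a FLAG peak. BRG1 peaks numbered 25 and 36, more at 4 loci and fewer at 2, beside 53.2% and 12.7% of all loci with a BRG1 peak. Foxj3 (chr4:119537004-119629119, + strand), which acts in germ cells and muscle, held 5 and 6 FLAG peaks, 2 and 5 BRG1 peaks, 1 and 3 H3K27ac peaks and 4 and 2 H3K4me1 peaks. Foxk1 (chr5:142401497-142462011, + strand), a regulator of autophagy and glycolysis, held 7 and 9 FLAG peaks, 4 and 6 BRG1 peaks, 6 and 5 H3K27ac peaks and 10 and 9 H3K4me1 peaks. Foxj2 (chr6:122819914-122845366, + strand) held 3 and 4 FLAG peaks, 3 and 5 BRG1 peaks, 4 and 5 H3K27ac peaks and 6 H3K4me1 peaks in each arm. Foxm1, the mitotic regulator, had 3 FLAG peaks in both arms but 4 and 2 BRG1 peaks.

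Among the mesenchymal members, Foxc1, Foxc2, Foxd1, Foxd2, Foxf1, Foxf2, Foxl1, Foxs1 and Foxq1 together held 13 and 14 FLAG peaks, 7 and 9 BRG1 peaks, 11 and 14 H3K27ac peaks and 29 and 21 H3K4me1 peaks. H3K4me1 peaks were fewer in NanogBiD at 5 of the 9 loci, near the 51.6% of all loci with such a peak, and their summed number was lower in NanogBiD in every role group. Foxc1 had 2 FLAG, 2 BRG1 and 3 H3K27ac peaks in each arm. Foxd1 had 4 and 2 FLAG peaks. Foxs1, expressed in perivascular cells, had 1 FLAG peak in each arm, not shared, with that of NanogWT (9 tags) 18.6 kb upstream and that of NanogBiD (10 tags) 18.2 kb downstream of its start. The second also held a BRG1 peak of 7 tags in NanogBiD alone. Its H3K27ac peaks numbered 2 and 3 and its H3K4me1 peaks 5 and 2. Foxq1 had 1 and 2 FLAG peaks, a BRG1 peak of 11 tags in NanogWT alone, an H3K27ac peak of 8 tags in NanogBiD alone and 2 and 1 H3K4me1 peaks.

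Genes of pluripotency and endoderm differed among themselves. Foxd3, Foxh1, Foxa1, Foxa3 and Foxo1 held 8 and 11 FLAG peaks, 8 and 11 BRG1 peaks, 11 and 10 H3K27ac peaks, and 19 and 16 H3K4me1 peaks. Of the FLAG peaks, Foxo1, which also counts among the FOXO genes, had 3 and 6. Foxd3 had 1 FLAG peak, of 8 tags, in NanogBiD and none in NanogWT, with no BRG1 or H3K27ac peak in either arm. Foxh1 had 2 FLAG and 2 BRG1 peaks in each arm, at a window that also holds the starts of Cyhr1, Kifc2 and Ppp1r16a. Foxa3 had 3 and 2 FLAG peaks, 3 BRG1 and 5 H3K27ac peaks in each arm and 6 and 3 H3K4me1 peaks, at a window that also holds the starts of Irf2bp1 and Sympk. Foxa1 had H3K4me1 peaks alone, 2 in each arm.

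Foxi2, of ectodermal placodes, had 2 and 4 FLAG peaks, a BRG1 peak of 8 tags in NanogBiD alone and an H3K27ac peak of 8 tags in NanogWT alone, with 2 and 3 H3K4me1 peaks. Foxn4, which acts in retina and spinal cord, had 0 and 1 FLAG peaks, 0 and 2 BRG1 peaks, 0 and 1 H3K27ac peaks and 2 H3K4me1 peaks in each arm. Its BRG1 summits reached 9 tags and its window holds the starts of Acacb and Myo1h. Foxi1 had a BRG1 peak of 9 tags and an H3K27ac peak of 13 tags in NanogWT alone and no other peak. Such single low peaks rest on 7 to 15 tags.

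Promoters of forkhead genes showed a pattern that was alike in both arms. H3K4me1 peaks lay within 2 kb of a start site at 33 of 39 genes in NanogWT and 31 in NanogBiD, 84.6% and 79.5%, beside 63.3% and 62.0% of all protein-coding genes. In NanogWT, 14 forkhead promoters had H3K4me1 without H3K27ac, 35.9% (22.7 to 51.6), where 12.1% of all genes did. In NanogBiD there were 13, 33.3% (20.6 to 49.0) beside 8.72%. Among them in both arms were Foxb2, Foxd3, Foxe1, Foxi3 and Foxl2 and the mesenchymal Foxc2, Foxf1 and Foxl1. Both histone marks were present at 19 and 18 promoters, including all of Foxj2, Foxj3, Foxk1, Foxk2, Foxn2, Foxn3, Foxo1, Foxo3, Foxp1 and Foxp2 in both arms.

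NANOG and BRG1 were called mostly at the promoters with H3K27ac. In NanogWT all 19 promoters with both marks had a FLAG peak and 18 a BRG1 peak, while of the 14 with H3K4me1 without H3K27ac 1 had a FLAG peak, Foxc2, and 1 a BRG1 peak, Foxl1. Over all genes in NanogWT, 90.6% of promoters with both marks had FLAG and 90.8% BRG1, against 25.6% and 20.2% of those with H3K4me1 without H3K27ac. In NanogBiD 16 and 17 of 18 promoters with both marks had FLAG and BRG1, and of the 13 with H3K4me1 without H3K27ac 1 had FLAG, Foxl1, and 0 had BRG1. Over all genes in NanogBiD 90.6% of promoters with both marks had FLAG and 10522 of 11696 had BRG1, and of those with H3K4me1 without H3K27ac 22.2% had FLAG and 19.4% BRG1. The combination of histone marks was the same in both arms at 32 of 39 promoters. The same share over all genes was not computed, so this count cannot be read as a trait of forkhead promoters.

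BRG1 was called at 21 forkhead promoters in each arm, 53.8%, beside 53.9% of all genes in NanogWT and 55.5% in NanogBiD. Of these promoters 20 were shared, and the count was 19 in NanogWT and 13 in NanogBiD at equal list length. The promoter share over all genes was not computed at that length, at which 40.4% of all gene loci had fewer and 17.2% more BRG1 peaks in NanogBiD. Foxj1, the master gene of motile cilia, had promoter BRG1 in NanogBiD alone, and 5.15% of all genes were in that class. Foxl1, of gut mesenchyme, was the single gene counted in NanogWT alone, beside 3.61% of all genes, but this count rests on the 2 kb limit, as described below. H3K27ac was called at 21 promoters in NanogWT and 22 in NanogBiD, 53.8% and 56.4% beside 57.1% and 59.9% of all genes, the difference being Foxq1 in NanogBiD alone, beside 4.29% of all genes, while 0 forkhead genes and 1.44% of all genes had it in NanogWT alone.

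At the Foxj1 locus FLAG peaks numbered 3 and 2, and BRG1 peaks 1 and 3, while H3K27ac and H3K4me1 each had 4 in NanogWT and 3 in NanogBiD. Its promoter FLAG and H3K4me1 peaks were in NanogWT alone. Foxl1 had 3 FLAG peaks in each arm, 2 and 3 BRG1 peaks, and 2 H3K27ac and 4 H3K4me1 peaks in each arm, and its window overlaps that of its neighbour Foxc2. The region nearest to its start (chr8:121124604-121126006), with its summit 2.4 kb upstream, had FLAG in both arms at 17 and 19 tags and BRG1 in both arms at 17 and 14. The 2 kb limit passes between the edges of these peaks, so that FLAG was counted at the promoter in NanogBiD alone and BRG1 in NanogWT alone although both were called in both arms.

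**Figure D4:**
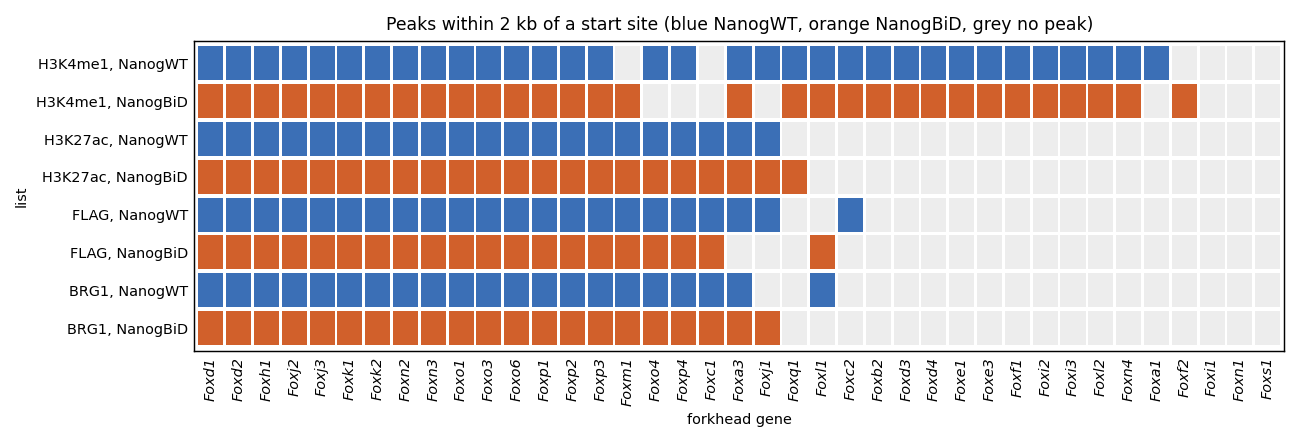
Presence of a peak within 2 kb of a start site for each of the 39 forkhead genes (columns) in the 8 lists (rows), blue for NanogWT, orange for NanogBiD and grey for no peak. FLAG and BRG1 tiles on the left coincide with H3K27ac, and most genes on the right carry H3K4me1 without the other targets. At Foxl1 the FLAG and BRG1 tiles differ between arms although the peaks, at the 2 kb limit, were called in both.

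Of the 39 loci, 5 had no FLAG, BRG1 or H3K27ac peak in either arm, namely Foxa1, Foxb2, Foxe1, Foxi3 and Foxl2, and all 5 had H3K4me1 peaks in both arms. Foxd4 differed from them by a single FLAG peak of 9 tags in NanogBiD. Foxi1 was the single locus of the 39 with no H3K4me1 peak, beside 3844 of 21938 protein-coding gene loci. Taken target by target, 6 forkhead loci had no FLAG peak, 8 no BRG1 peak and 7 no H3K27ac peak. Over all protein-coding gene loci the numbers were 4040, 4599 and 4854. The share of all loci without FLAG, BRG1 and H3K27ac together was not computed.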

How the data were processed

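Peak lists of 8 CUT&Tag libraries were used, 4 targets in each of 2 arms. Per the methods and the submitters' processing notes, the authors trimmed reads with Trim Galore 0.6.4, aligned them to mm10 with Bowtie2 2.4.5, filtered them with SAMtools 1.16.1, merged replicates and called peaks with MACS 1.4.2 without a named control. The authors deposited a score for each peak, the caller's significance on a log scale, with a minimum of 50.0. The authors deposited as signal for each summit the tag pileup, called height here. Neither was scaled to depth, which is unknown, so precision is given as counting error only.

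Peaks and summits were joined by name with Python 3.11.15, pandas 2.3.3 and scipy 1.17.1. A peak belonged to a locus when it overlapped it by at least 1 bp, using GENCODE release M21. Peaks that overlapped or touched were merged into regions. Distances are from the nearest GENCODE start site of the forkhead gene. Shares have Wilson 95% intervals, ratios of peak numbers exact binomial ones, and medians order-statistic ones. Sequences were read from the RefSeq assembly of mm10 (GRCm38) with pysam 0.24.0. Counting was tested on simulated peaks. With 1 merged library per group no test was made.

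The members and lists were chosen with earlier results of these data known. Values in all 8 lists are given for the 8 genes with the largest difference between arms in FLAG plus BRG1 peaks (ties by FLAG height), for genes with FLAG peaks and with BRG1 in one arm alone, and for genes with promoter BRG1 or H3K27ac in one arm alone. Named regions are the first 6 with FLAG and BRG1 in NanogBiD alone, the first 3 in NanogWT alone, and the 3 highest and 3 lowest FLAG height ratios among shared regions with a height of at least 15. The split into promoter and distal peaks, the promoter combinations, the long genes, the octamer sites and the tallest BRG1 regions were added after the data had been seen.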

Additional observations from a re-analysis of the deposited data

How the results depend on the processing

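No paired analysis was possible because there was 1 library per group and the columns carry no replicate numbers. Of the recomputed values 140 stayed within the interval, or for counts within 1.5 times, of those reported, and 26 did not, and the cause was not tested. When lists were limited to their 20000 best-scoring peaks, the BRG1 ratio became 0.977, the distal FLAG ratio 0.897 and the FLAG ratio 0.907, all on the other side of equality, and the distal BRG1 ratio 1.56. Then 3 loci had more FLAG peaks in NanogBiD, 5 more BRG1, 5 more H3K27ac and 11 more H3K4me1 peaks, against 8, 13, 4 and 9 with fewer, which turned the order for FLAG, BRG1 and H3K4me1. Regions in NanogBiD alone made up 17.3% for FLAG and 28.3% for BRG1, where all peaks gave 32.6% and 68 of 136 (31.6% and 42.8% over all gene loci). BRG1 in NanogBiD alone was found at 55.6% of FLAG regions in NanogBiD alone (5 of 9). Promoter BRG1 was found at 13 genes in NanogBiD and 19 in NanogWT, with no share over all genes computed at that length. With scores of at least 100, 10 loci had more and 9 fewer FLAG peaks, against 18 and 3 with all peaks, and the FLAG ratio was 1.04. At that cut 4 loci had more and 14 fewer H3K4me1 peaks, and the H3K4me1 ratio was 0.618. The distal BRG1 ratio was 3.70, within its interval. The share of FLAG regions in NanogBiD alone with BRG1 in NanogBiD alone was 23.3%. With heights of at least 15 tags, 9 loci had more FLAG and 10 more BRG1 peaks, against 8 with fewer of each, the H3K4me1 ratio was 0.609, the distal BRG1 ratio 4.50 and that same share 21.4%. Counting only peaks nearest to a forkhead start site left 11 loci with more FLAG and 8 with more H3K27ac peaks, against 4 with fewer of each. Flanks of 50 kb gave 6 loci with more and 23 with fewer H3K4me1 peaks. Apart from equal list length, locus counts over all genes were not computed under these alternatives. Windows of 100 bp either side of summits put FLAG regions in NanogBiD alone at 41.4% in place of 32.6%, and leaving out Foxp1, Foxp2 and Foxn3, an alternative added after seeing the data, put BRG1 regions in NanogBiD alone at 38.4% in place of 68 of 136. The share of promoters with H3K4me1 and no H3K27ac stayed between 25.6% and 41.0% in NanogWT and between 28.2% and 33.3% in NanogBiD under the 4 alternatives tried. The unknown depth limits every comparison of peak numbers.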
